A study of Homo sapiens with 4 samples.

Results

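The major histocompatibility complex (MHC) on the short arm of chromosome 6 is represented 8 times in the hg19 build, once in the chromosome itself and once in each of 7 alternative haplotype sequences named APD, COX, DBB, MANN, MCF, QBL and SSTO. CEBPB sites were collected from the 5 Mb of the chromosome that begin at 28500001 and from all 7 haplotype sequences. Membership rested on the position of the summit, the base of highest signal in a peak, and on no measured value. These sequences held 432 of the 81303 summits of replicate 1 and 440 of the 105225 summits of replicate 2. They also held 175 of the 25827 distinct regions in the authors' IDR table (irreproducible discovery rate), which lists peaks that rank alike in both replicates. Of the 175 regions, 31 lay in the chromosome 6 window and 144 on the haplotype sequences, which are versions of one piece of chromosome and not further pieces of it.

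CEBPB binding was mapped by ChIP-seq in the colon epithelial cell line NCM460, of human origin. It had 2 CEBPB ChIP samples, titled CEBPB ChIP rep1 and rep2 and described as independent experiments, and 2 input samples as controls. No treatment, time or genotype was named for any of them. Each ChIP sample had its own peak list, and the inputs entered these lists as the background behind each peak. With 2 replicates, differences between them describe these libraries.

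The MHC carries the classical class I and class II HLA genes, whose products present peptides to T cells, and between them a class III stretch with genes of complement and of inflammation such as C4 and TNF. It is among the most variable parts of the human genome, and the alternative sequences were assembled so that distinct haplotypes could be read side by side. CEBPB is a basic leucine zipper factor of the C/EBP family, known for its part in acute phase and inflammatory transcription. Class I genes are expressed in colon epithelium, while class II genes are inducible there. No hg19 gene annotation of the whole region was used here, so sites are named by position, and only 2 genes could be placed on the versions: DXO, a decapping and 5′ to 3′ exonuclease of RNA quality control in the class III stretch, and OR12D2, an olfactory receptor gene near the class I end.

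The start of DXO is shown because summits of CEBPB lay on both sides of it: the main one on 6 versions, downstream of the letters shown, and a low one upstream on 3 versions. It is given here from RefSeq on GRCh38.p14, chr6:31972089-31972388, minus strand, 5′ to 3′, and runs from 250 bases before the start to 50 bases after it. The capitals mark ATTGG, the complement read backwards of the CCAAT box after which the C/EBP family was named.
DXO: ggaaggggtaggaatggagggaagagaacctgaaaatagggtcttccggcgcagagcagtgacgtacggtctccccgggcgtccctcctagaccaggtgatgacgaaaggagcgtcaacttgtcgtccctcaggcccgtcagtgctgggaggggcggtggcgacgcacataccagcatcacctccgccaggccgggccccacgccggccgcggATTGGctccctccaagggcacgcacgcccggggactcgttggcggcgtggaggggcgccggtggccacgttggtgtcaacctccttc
The capitals begin at position 214 of the 300 bases. Read on both strands, CCAAT was found in 34.6% of the 35116 promoters of the same length in the RefSeq table. The C/EBP pattern TTGCNNAA occurred in 10.5% of them and the related pattern TGACGTNA in 3.01%, and neither was found in this window. No overlap between the patterns was scored. A match describes letters and not a bound site.

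On chromosome 6 the site of DXO had its main summit at 31939784, in the gene and 248 bp downstream of its start at 31940032, in an exon outside the coding part in 4 of 4 transcripts of the hg19 knownGene sample. The summit had 51 fragments in replicate 1 and 54 in replicate 2. Fragments are the extended reads over the summit, recovered from the deposited fold and p-value. Relative to the start of the gene, the same place was called on 5 haplotype sequences, 232 bp downstream on COX, 242 bp on DBB, 251 bp on MCF, 240 bp on QBL and 243 bp on SSTO. These 6 summits lie beyond the 50 bases that are shown after the start. On these 5 haplotype sequences the fragments of replicates 1 and 2 were 49 and 47 on COX, 42 and 58 on DBB, 42 and 62 on MCF, 55 and 61 on QBL, and 46 and 67 on SSTO. All 6 versions were inside regions of the IDR table, and their values spanned 42 to 55 fragments in replicate 1 and 47 to 67 in replicate 2. The knownGene sample did not place DXO on APD or MANN.

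A second, low summit lay upstream of the start of DXO on 3 versions, 31 bp away on COX, 49 bp on DBB and 27 bp on QBL, inside the stretch whose letters are shown above if the start is the same in both builds, which was not compared. It had 13 fragments in replicate 1 and 15 in replicate 2 on COX, and 12 and 15 on QBL. On DBB it was called in replicate 2 alone, with 13 fragments. The fewest fragments at any summit of the lists were 7 in replicate 1 and 8 in replicate 2, so these values are near the lower end of what was called. In the RefSeq gene order of GRCh38.p14, DXO is followed by WHR1, C4A, CYP21A1P, TNXA, WHR1B, C4B, CYP21A2 and TNXB, the duplicated stretch of complement C4. The main site at DXO and the matched site at 32050879, which lie 111095 bp apart on chromosome 6, were both called on COX, DBB, MCF and QBL. Their distance on MCF was the same as on chromosome 6 within 1 bp. It was 39052 bp shorter on COX, 32768 bp shorter on QBL and 6367 bp shorter on DBB, which is a measure of the assembled sequences.

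No member lay near OR12D2. The nearest summit on chromosome 6 was at 29115091, 249325 bp upstream of the gene, and had 10 fragments in replicate 1 and no call in replicate 2. Between 29115091 and 30043617 chromosome 6 had no summit in either list, over 929 kb. Each haplotype sequence had a stretch without summits as well, the longest on each being 603 kb on MCF and 783 to 918 kb on the other 6. Whether these stretches hold gaps of the assembly was not looked up.

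Reproducible regions were thinner on these sequences than on the rest of the chromosome arm. The chromosome 6 window held 6.2 regions of the IDR table per Mb (95% Poisson interval 4.21 to 8.8), against 11.8 per Mb (10.9 to 12.7) over the 658 regions in the rest of 6p. Per sequence, the density was 2.16 per Mb on APD with 10 regions, 5.63 on COX with 27, 5.86 on DBB with 27, 4.48 on MANN with 21, 3.1 on MCF with 15, 5.64 on QBL with 26 and 3.65 on SSTO with 18. The upper ends of the intervals on the haplotype sequences ran from 3.98 per Mb on APD to 8.52 on DBB, all below the lower end in the rest of 6p. The difference from the rest of 6p was not tested. Densities used the full length of each sequence, and gaps in the assembled sequences were neither looked up nor subtracted. Differences in density between versions can therefore not be read as differences in binding. Among the 32 other windows of 5 Mb along chromosome 6, 10 held fewer than 31 regions and 21 held more, with a median of 42.5, so the number in the MHC window was within the range of the chromosome.

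Summits were scarcer still. Replicate 1 gave 75 summits in the chromosome 6 window and replicate 2 gave 74, against medians of 124 and 170 in the other windows of chromosome 6. On the haplotype sequences the numbers in replicates 1 and 2 were 30 and 26 on APD, 70 and 72 on COX, 61 and 63 on DBB, 53 and 52 on MANN, 39 and 45 on MCF, 68 and 71 on QBL, and 36 and 37 on SSTO. COX and QBL had about as many summits as the chromosome 6 window, and APD, MCF and SSTO had the fewest in both replicates. How much of each sequence was assembled was not looked up. Over all sequences replicate 2 had more summits than replicate 1, whereas on the MHC sequences the 2 lists were of nearly equal length.

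At the borders of the window, the summits just inside its start were at 28510755 with 65 fragments in replicate 1 and 28510764 with 100 in replicate 2, and the nearest outside were at 28442224 with 14 and 28453545 with 17. Just inside its end were the summits at 33499880 with 132 fragments and 33499869 with 124, and just outside those at 33502604 with 19 and 33502577 with 16. A slightly shorter window would therefore lose one of its tallest sites.

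Most intervals of the members were found again in the other replicate. In replicate 1, 344 of 432 member summits (79.6%, exact binomial interval 75.5 to 83.3) lay in an interval that overlapped one of replicate 2, against 82.8% of all summits. In replicate 2, 347 of 440 (78.9%, 74.7 to 82.6) overlapped one of replicate 1, against 64.8% of all summits. The intervals of 43.1% of the member summits in replicate 1 and 43.0% in replicate 2 entered the IDR table, beside 35.8% and 28.1% of all summits. Of the 175 member regions, 97 (55.4%) had an IDR of at most 0.01, beside 60.5% of all regions. The shares with a partner ran from 73.3% on APD to 86.1% on SSTO in replicate 1, and from 68.9% on MCF to 84.6% on APD in replicate 2.

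The 10 strongest regions of the chromosome 6 window by fold, the peak caller's enrichment of the ChIP over the input background, lay in band 6p21.33 in 7 cases. The strongest was chr6:30710616-30710915, whose fold was 33.54 ± 11.51 (SD, n = 2), on 89 fragments in replicate 1 and 85 in replicate 2. It was followed by chr6:30750287-30751025, at 30.59 ± 11.00 on 91 and 66 fragments, and by chr6:30483803-30484143, at 27.25 ± 3.40 on 63 and 72 fragments. Then came chr6:33499666-33500062 in band 6p21.32, the region at the border of the window, at 26.25 ± 12.21. Its 132 and 124 fragments were the highest in the window, but the background of 6.0 expected fragments in replicate 1 held its fold there at 17.6, against 34.9 in replicate 2.

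The other 6 regions had mean folds between 19.12 and 23.86. In band 6p21.33 these were chr6:30663175-30663488 with 63 and 52 fragments, chr6:31671043-31671326 with 69 and 58, chr6:31970791-31971104 with 48 and 50, and the region of DXO at chr6:31939574-31940145. The remaining pair was chr6:33479726-33480046 in 6p21.32 with 40 and 75 fragments and chr6:29093596-29093902 in 6p22.1 with 33 and 65. Of the 10 regions, 5 had more fragments in replicate 2 and 5 had fewer. Folds of the replicates differed by up to 17.3 in this group, so the order among neighbours is not firm. In steps of 0.5 Mb from the start of the window, the step at 3 Mb held 7 regions, and those at 1 Mb and at 4 Mb held 0.

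On the haplotype sequences the strongest region was on DBB, 2043112 to 2043790, whose fold was 40.33 ± 3.80 (SD, n = 2) on 159 and 178 fragments. SSTO 2042931 to 2043264 followed at 37.46 ± 14.48, QBL 2003544 to 2003842 at 36.50 ± 9.29, MANN 2098404 to 2098897 at 34.33 ± 9.09 and COX 2222680 to 2223011 at 33.08 ± 10.20. The strongest on MCF, 3050722 to 3051310, reached 25.72 ± 5.56, and the strongest on APD, 1807371 to 1807701, reached 24.34 ± 1.19. Among these 7 leading regions, those of SSTO, QBL and COX were versions of the site at 30710761 on chromosome 6, the strongest there.

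Summits were traced from one version to another by their spacing: a pair of sites was linked where their offset recurred within 50 bp in another pair less than 200 kb away, along a single collinear path. The summits formed 533 sites on the 8 sequences, and 430 of these (80.7%) were linked to at least 1 other version. They collapsed into 100 matched sites, 75 of them with a version on chromosome 6, and 103 sites had no match. Of the matched sites, 27 had 2 versions, 14 had 3, 13 had 4, 20 had 5, 6 had 6, 14 had 7 and 6 had all 8. The offsets implied by the nearest links differed from those of the DXO gene on the 5 haplotype sequences that carry it in the knownGene sample by at most 16 bp. At OR12D2, about 250 kb from the nearest link, the differences were 87 to 395 bp.

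The share of sites that found a match was 82.4% on APD, 76.7% on COX, 89.3% on DBB, 78.5% on MANN, 71.7% on MCF, 77.6% on QBL, 85.7% on SSTO and 84.3% on chromosome 6. Direct links of COX, MCF and QBL to chromosome 6 reached 33.34 Mb, whereas those of SSTO ended at 32.0 Mb, of DBB at 32.11, of APD at 32.14 and of MANN at 32.34. Chromosome 6 had versions of 58 matched sites in common with COX and of 58 with QBL, the largest numbers among the 28 pairs of sequences, and APD and SSTO had 9 in common, the smallest.

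**Figure D1:**
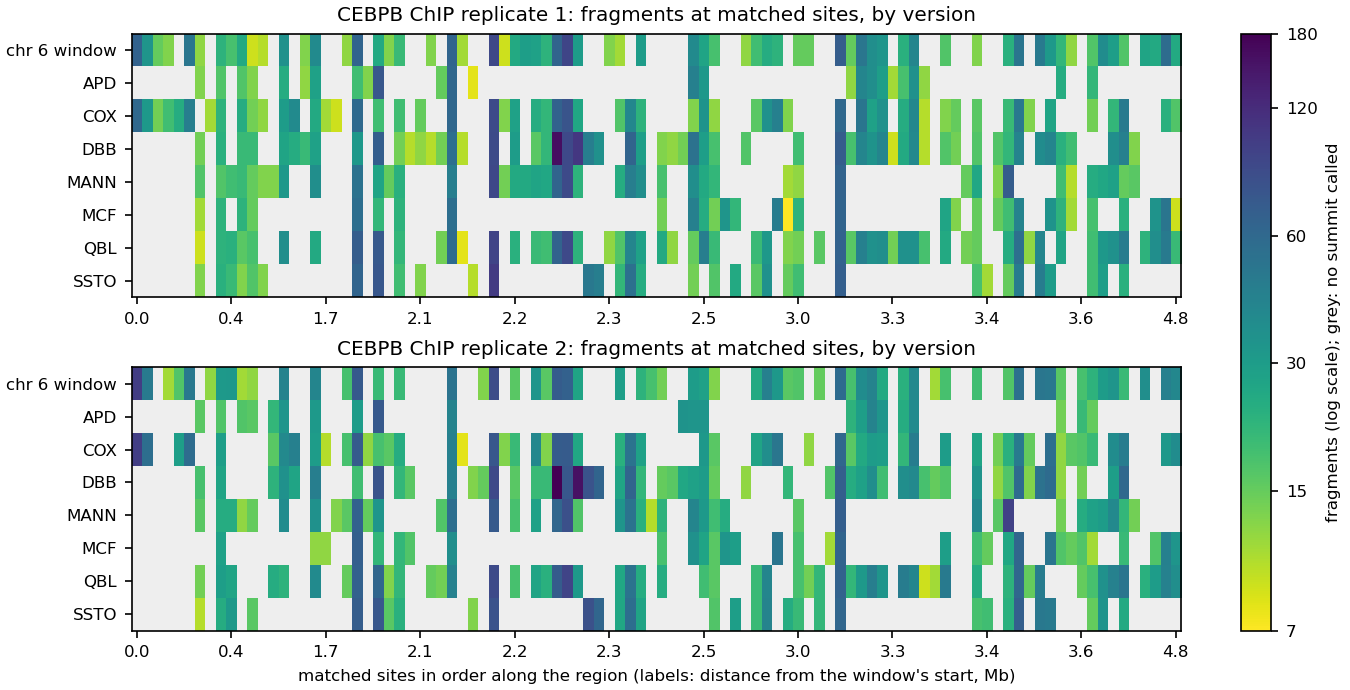
Fragments in replicate 1 (upper panel) and replicate 2 (lower panel) at the 100 matched sites, in order along the region, with a row for each of the 8 sequences and a log colour scale. Grey cells had no summit called; many columns hold similar colours over several versions, and the dark cells of DBB near 2.3 Mb stand apart from their column.

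Joining the versions changed the number of sites inside regions of the IDR table. A site counted where its position fell inside a region, so 1 region can hold several sites. Some of these sites were called in 1 replicate alone. COX 2973622 and DBB 2044800, both without a match, had 17 and 14 fragments in replicate 2 and no call in replicate 1. The sites that lay inside a region of the IDR table numbered 196 over the 8 sequences and 68 after versions of one site were joined. Of these 68, 35 were in the table on chromosome 6 and 33 on haplotype sequences but not on chromosome 6. Among the 33, 11 had a summit on chromosome 6 that was outside the table, 22 had no summit called there, and 15 were matched to no other version. A version whose spacing differs by more than the tolerance is missed and counts as a site of its own, so these counts depend on the tolerance. At 200 bp, chosen as an alternative after the data were seen, 63 sites remained after joining, 28 of them on haplotype sequences only, 16 of these without a summit on chromosome 6 and 10 without any match. At 20 bp the numbers were 77, 42, 32 and 24. At the 50 bp used here, another 5 of the 68 were in the table on chromosome 6 and on no haplotype sequence. They include 33479864 and 33499880, which lie beyond the last chromosome 6 site linked to any version.

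Sites called on many versions were the ones called in both replicates more often. Both replicates had a summit at 82.3% of 282 sites with 5 to 8 versions, at 47.3% of 148 sites with 2 to 4 versions, and at 35.9% of the 103 sites with no match. Median fragments per version in replicate 1 were 25, 16 and 16 in these 3 classes, and in replicate 2 they were 27, 22 and 16. Matching needs a summit on each version, so taller sites can be matched more readily, and the versions of a site are not separate sites. Of the 46 matched sites with 5 to 8 versions, 29 were called on every version in both replicates. All versions of 12 of the 46 were in the IDR table, and no version of 15 was.

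Heights were close to even over the versions at many matched sites. The site at 31671180 on chromosome 6 was called on 7 versions, all inside the IDR table. In replicate 1 it had 69 fragments on chromosome 6, 60 on COX, 69 on DBB, 64 on MANN, 63 on MCF, 65 on QBL and 67 on SSTO. In replicate 2 the same versions had 58, 61, 67, 68, 63, 65 and 62 fragments. Highest and lowest differed by 9 fragments in replicate 1 and 10 in replicate 2, within the counting error of a single value. The strongest site of the window, at 30710761, was as level, with 86 to 102 fragments on 6 versions in replicate 1 and 72 to 88 in replicate 2. A site at 28726220 was called on all 8 versions at a lower height, with 17 to 23 fragments in replicate 1 and 17 to 31 in replicate 2.

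Versions were compared at the 49 matched sites with at least 3 of them called in both replicates. At 6 of the 49 (12.2%), some versions stood apart from others beyond the exact 95% Poisson intervals of both, in both replicates alike. At the other 43 the median of the highest over the lowest version was 1.52 in replicate 1 and 1.46 in replicate 2, with maxima of 4.08 and 3.75. Of the 43, 3 had versions apart in replicate 1 alone and 4 in replicate 2 alone. The site at 31016092 had 13 fragments on COX, 15 on QBL and 14 on SSTO in replicate 1, against 36 to 53 on the other 5 versions. In replicate 2 those 3 versions had no call and the other 5 had 28 to 41, so it was not among the 6, which needed calls in both replicates. The intervals cover counting error only, and no correction was made for the number of pairs. Over all 49 sites, the deviation of each version from its site's mean on the log2 scale correlated between the replicates with Pearson's r = 0.678 and Spearman's rho = 0.455 over 261 versions, which share sites and libraries. Without the 6 sites, r was 0.26 and rho 0.213 over 221 versions. These 6 had been picked for standing apart in both replicates, so a lower correlation without them was built in. The highest version was the same in both replicates at 15 of the 49 sites, and the number to be met by chance was not computed.

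The clearest of the 6 was at 30495943 on chromosome 6, or 1996 kb from the window's start, and was called on all 8 versions. In replicate 1 it had 75 fragments on APD, 68 on DBB, 73 on QBL and 75 on SSTO, against 25 on chromosome 6, 19 on COX, 27 on MANN and 21 on MCF. In replicate 2 it had 73, 77, 62 and 75 fragments on the first 4 of these, against 20, 18, 33 and 21 on the other 4. The 2 sets of versions did not overlap in either replicate, and chromosome 6 itself was on the low side and outside the IDR table. The strongest region of APD is its version of this site.

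At the neighbouring site 30483977, 12 kb away, a different set was low. APD had 19 fragments in replicate 1 and 30 in replicate 2, and DBB had 32 and 19, whereas the other 6 versions had 53 to 69 in replicate 1 and 65 to 72 in replicate 2. APD and DBB were thus the low versions by fragments here and among the high ones at 30495943. Background at 30483977 was 3.0 in both replicates on COX and 1.0 and 1.36 on DBB. Folds were 13.9 and 14.2 on COX and 15.3 and 6.87 on DBB. By fold, DBB was therefore not below COX in replicate 1. At 32338497, COX, DBB and QBL had 44 to 48 fragments in replicate 1 and 46 to 60 in replicate 2, against 15 to 23 and 20 to 25 on chromosome 6, MANN, MCF and SSTO. SSTO, with 23 and 25, was inside the IDR table and was not apart from any high version beyond the intervals in both replicates.

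The remaining 3 sites were led by a single version. At 31917059, MANN had 70 fragments in replicate 1 and 96 in replicate 2, against 15 to 24 and 17 to 26 on the other 6 versions. At 30749823, DBB had 159 and 178, against 63 to 65 and 62 to 70 on chromosome 6, COX, MANN and QBL. At 30751432, 1609 bp further on, DBB had 107 and 155, against 22 to 30 and 17 to 31. Between these 2 lies the site at 30750626, where DBB was level with the other versions: it had 88 and 75 fragments, against 77 to 91 in replicate 1 and 66 to 93 in replicate 2 on chromosome 6, COX, MANN and QBL. Expected background differed as well. At 31917059 it was 3.0 and 1.72 on MANN, against 1.0 to 1.07 and 1.36 on the others. Folds there were 16.5 and 28.6 on MANN and 11.1 and 6.19 on chromosome 6. At 30751432 background was 2.45 and 3.0 on DBB, against 1.0 and 1.36. Folds were 29.0 and 31.2 on DBB and 14.4 and 9.58 on chromosome 6. At 30749823 background was 2.45 and 2.81 on DBB and 3.0 and 1.56 on chromosome 6. Folds were 43.0 and 37.6 on DBB, against 14.8 and 22.3 on chromosome 6, the lowest of the other versions in replicate 1. They were 20.4 and 21.0 on COX, 29.6 and 21.5 on MANN, and 20.1 and 23.7 on QBL.

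DBB also carried a pair of summits shared with SSTO and with no other version, within 5963 bp of its version of 30751432. At DBB 2049968 there were 45 fragments in replicate 1 and 78 in replicate 2, and at its SSTO partner, 2088167, there were 49 and 80. At DBB 2051157 there were 35 and 63, and at SSTO 2089351 there were 45 and 62. All 4 were inside regions of the IDR table, and neither site had a summit on chromosome 6. SSTO in turn had no summit matched to the 4 sites between 30749455 and 30751432.

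**Figure D2:**
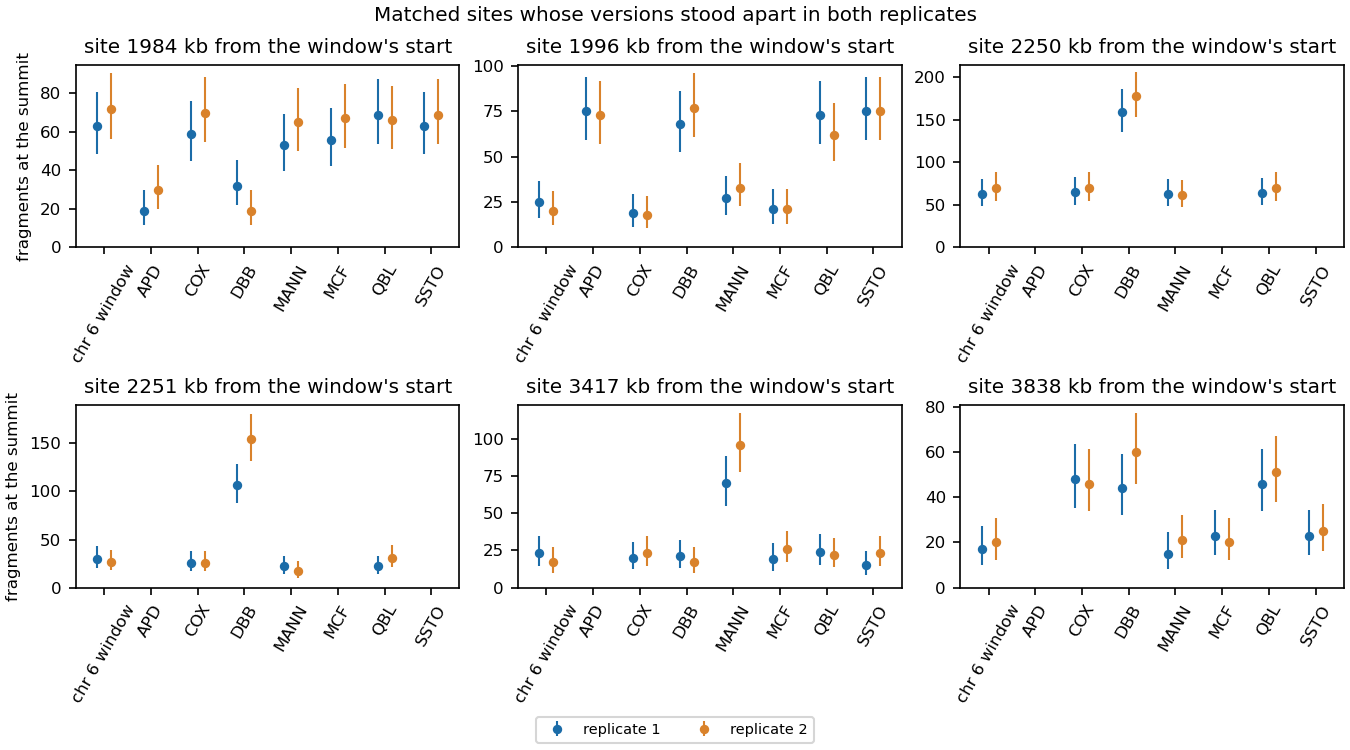
Fragments at the 6 matched sites whose versions stood apart, by sequence, for replicates 1 and 2; bars are exact 95% Poisson intervals and an empty place means that no matched summit was called. At 1996 kb, APD, DBB, QBL and SSTO stand at 62 to 77 fragments and the other 4 versions at 18 to 33 in both replicates.

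Fragments were also summed over the versions of each matched site, with versions that had no summit adding none. Over the 46 sites with 5 to 8 versions the median sum was 160 fragments in replicate 1 and 157 in replicate 2. A single region of the IDR table had a median of 58 and 76 fragments over all sequences. Per version, the median of the same 46 sites was 24 fragments in replicate 1 and 26.75 in replicate 2. Sums exceeded the median of single regions at 42 of the 46 sites in replicate 1 and 39 in replicate 2. At 7 and 8 sites they exceeded the tallest single region of any sequence, which had 299 and 305 fragments. A read that matches several versions alike can be placed on any one of them, on several or on none. How such reads were placed is not stated in the sources, so a sum is no estimate of the signal at 1 site of a cell.

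Of the 10 matched sites with the most versions, 6 were on all 8 sequences and 4 were taken from the 14 on 7 sequences, by their summed fragments. Summed over versions, the site at 30483977 had 414 fragments in replicate 1 and 458 in replicate 2, and that at 30495943 had 383 and 379. The site at 31671180, on 7 versions, reached 457 and 444, and that at 30663329, also on 7, reached 399 and 317. The site at 31016092 had 257 and 167, 28726220 had 168 and 209, 32338497 had 216 and 243, and 31025967 had 216 and 200. The last place was a tie that the rule did not settle. The site at 31917059, also on 7 versions with 192 and 224 fragments, had the same total as 31025967 and was left out. Sites at 29110248 and 29114233 were called on all 8 versions in replicate 1 but on 3 and 4 of them in replicate 2, with sums of 157 and 121 in replicate 1 and of 40 and 59 in replicate 2. No version of these 2 sites entered the IDR table. The reverse was seen at 32114201, called on 7 versions in replicate 2 with a sum of 125 fragments and on none in replicate 1.

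**Figure D3:**
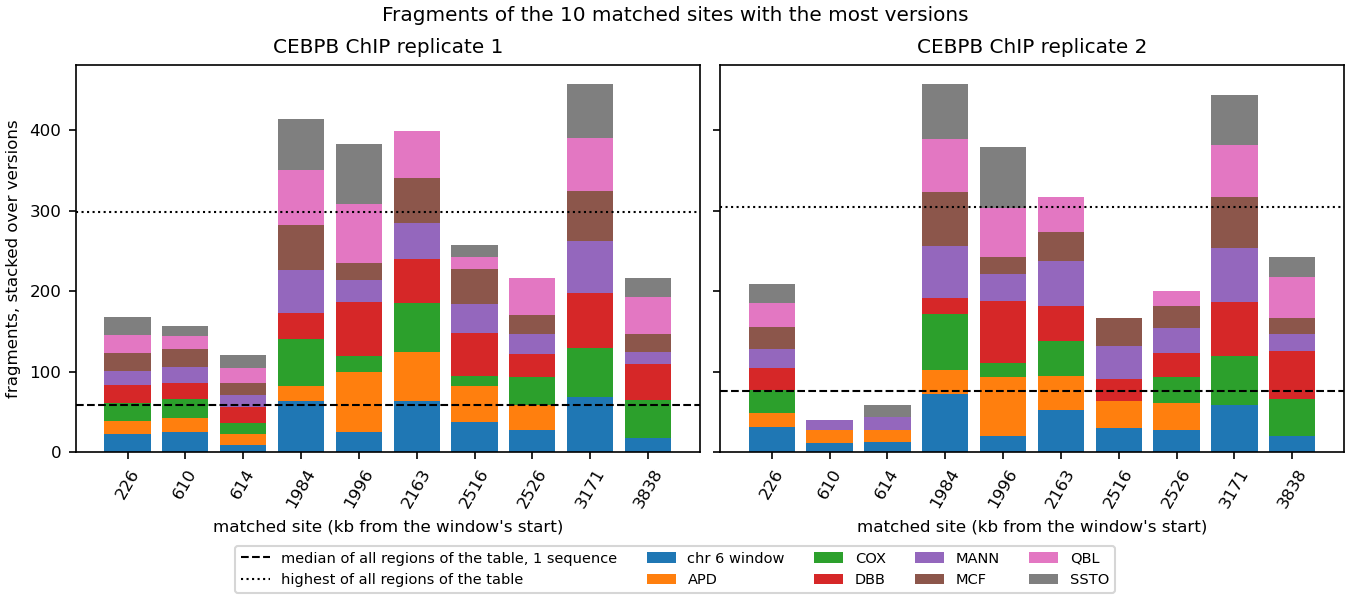
Fragments of the 10 matched sites with the most versions, stacked over the 8 sequences, in replicates 1 and 2; positions are kb from the window's start. The dashed line is the median and the dotted line the highest single region of the IDR table over all sequences; 4 sites pass the dotted line in each replicate.

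The 5 tallest sites without a match were 3 on chromosome 6, 1 on MANN and 1 on COX. On chromosome 6 they were 33499880 with 132 and 124 fragments, 33479864 with 40 and 75, and 29093739 with 33 and 65. On MANN the site at 3231892 had 30 and 50 fragments, and on COX that at 4494910 had 19 and 57. The first 4 lay inside the IDR table and that on COX did not. The sites at 33479864 and 33499880 lie beyond 33344149, the last chromosome 6 site linked to any version. Their lack of a match therefore does not show that other versions lack them.

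The input signal behind the members was low. In the peak caller's model the expected background at a summit comes from the input around it and cannot fall below a floor for the genome, which was 1.00 expected fragments in replicate 1 and 1.36 in replicate 2. In replicate 1, 261 of 432 member summits sat at the floor (60.4%, exact binomial interval 55.6 to 65.1), beside 11.0% of all summits and 6.29% (5.29 to 7.41) of the 2115 summits in the rest of 6p. In replicate 2, 294 of 440 sat at the floor (66.8%, 62.2 to 71.2), beside 17.2% of all summits and 9.85% (8.76 to 11.0) of 2720 in the rest of 6p. The sources do not state which input went with which ChIP sample.

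Every version shared this feature. In replicate 1 the share at the floor was 65.3% on chromosome 6, 46.7% on APD, 52.9% on COX, 60.7% on DBB, 71.7% on MANN, 61.5% on MCF, 47.1% on QBL and 83.3% on SSTO. In replicate 2 the shares in the same order were 66.2%, 76.9%, 62.5%, 68.3%, 76.9%, 77.8%, 56.3% and 59.5%. The lowest lower bound among these 16 intervals was 28.3%, on APD in replicate 1, above the upper bounds for the rest of 6p. Of the 32 other windows of 5 Mb along chromosome 6, 31 had a lower share than the MHC window in each replicate. The exception lay at 163.5 to 168.5 Mb, with 68.3% in replicate 1 and 68.9% in replicate 2.

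The share changed at both borders of the window. In the 2.5 Mb before it, 3 of 141 summits of replicate 1 and 9 of 164 of replicate 2 were at the floor, or 2.13% and 5.49%. In its first 0.5 Mb the shares were 33.3% in both, over 9 summits each. In the 4 Mb that follow they were 67.8% of 59 summits and 73.7% of 57. In its last 0.5 Mb, 6 of 7 summits of replicate 1 and 4 of 8 of replicate 2 were at the floor. In the 2.5 Mb after the window they were 8.18% of 110 and 21.4% of 140. On a step of 0.5 Mb the numbers of summits were too small for the shares to be ranked.

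**Figure D4:**
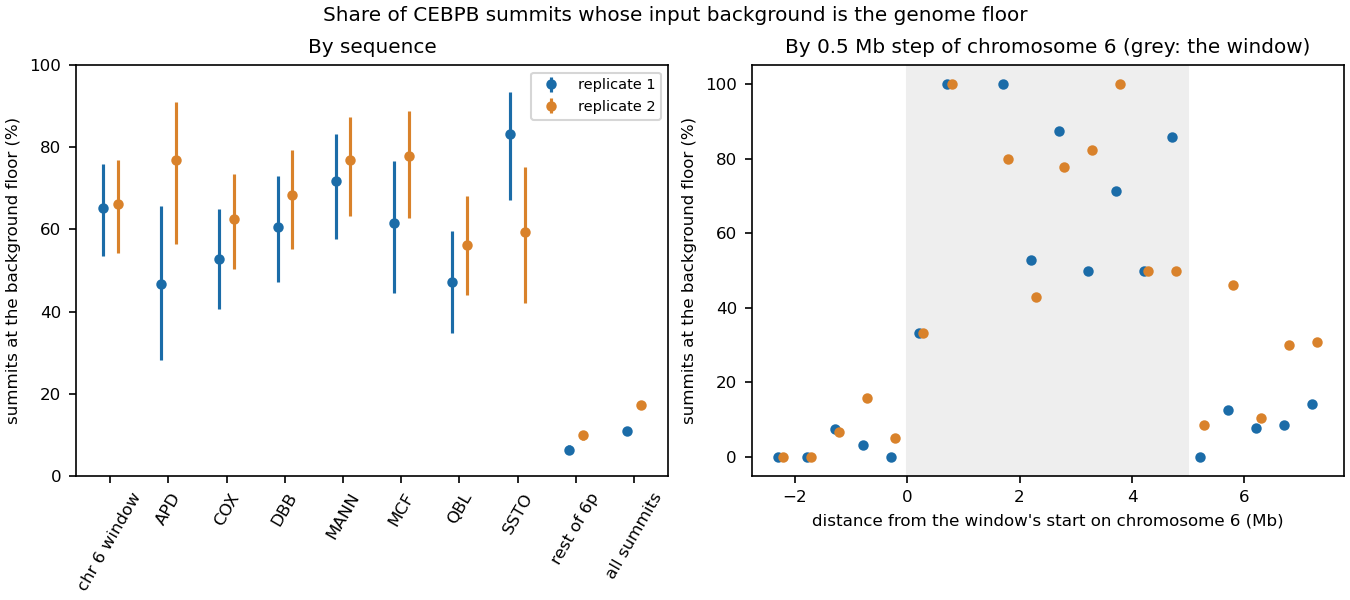
Left, the share of summits at the background floor on each of the 8 sequences, in the rest of 6p and over all summits, with exact 95% binomial intervals, for replicates 1 and 2. Right, the same share in steps of 0.5 Mb on chromosome 6; steps inside the window (grey) reach 100%, those within 2.5 Mb before it stay at or below 15.8%, and those after it reach 46.2% in replicate 2, above the lowest inside at 33.3%.

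Regions of the members had fewer fragments than others, while their folds differed less. The median of the 175 regions was 37 fragments in replicate 1 and 42 in replicate 2, against 62 and 83 in the rest of 6p and 58 and 76 over all sequences. Members thus had 0.597 times the median fragments of the rest of 6p in replicate 1 and 0.506 times in replicate 2. In replicate 1 the members' median fold was 15.8, against 15.3 in the rest of 6p, and in replicate 2 it was 13.7, against 16.3. In the chromosome 6 window alone the medians were 38 and 44 fragments, and of the 32 other windows of 5 Mb, 2 had a lower median in replicate 1 and 0 in replicate 2. By sequence the median was highest on COX and SSTO in replicate 1, at 40 fragments, and ran from 33 on APD to 48 on SSTO in replicate 2. Member regions were also narrower, with a median width of 314 bp, against 443.5 bp in the rest of 6p. Fewer DNA fragments from a locus and fewer reads placed on it cannot be told apart in these lists.

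Replicate 2 had more fragments per region over all sequences, but less so here. The median ratio of fragments in replicate 2 over replicate 1 was 1.11 over the 175 member regions, against 1.31 in the rest of 6p and 1.29 over all regions. The median was below that of all regions on every version: 1.08 on chromosome 6, 1.0 on APD, 1.14 on COX, 1.13 on DBB, 1.16 on MANN, 1.11 on MCF, 1.1 on QBL and 1.14 on SSTO. At equal height, 143 of the 175 regions (81.7%) had a smaller share of their fragments in replicate 2 than the running median of all regions, beside 49.7% of all regions and 47.1% in the rest of 6p. Versions of a site share reads of the same libraries, so these are not 175 separate observations. Of 31 regions on chromosome 6 alone, 24 were below the running median.

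**Figure D5:**
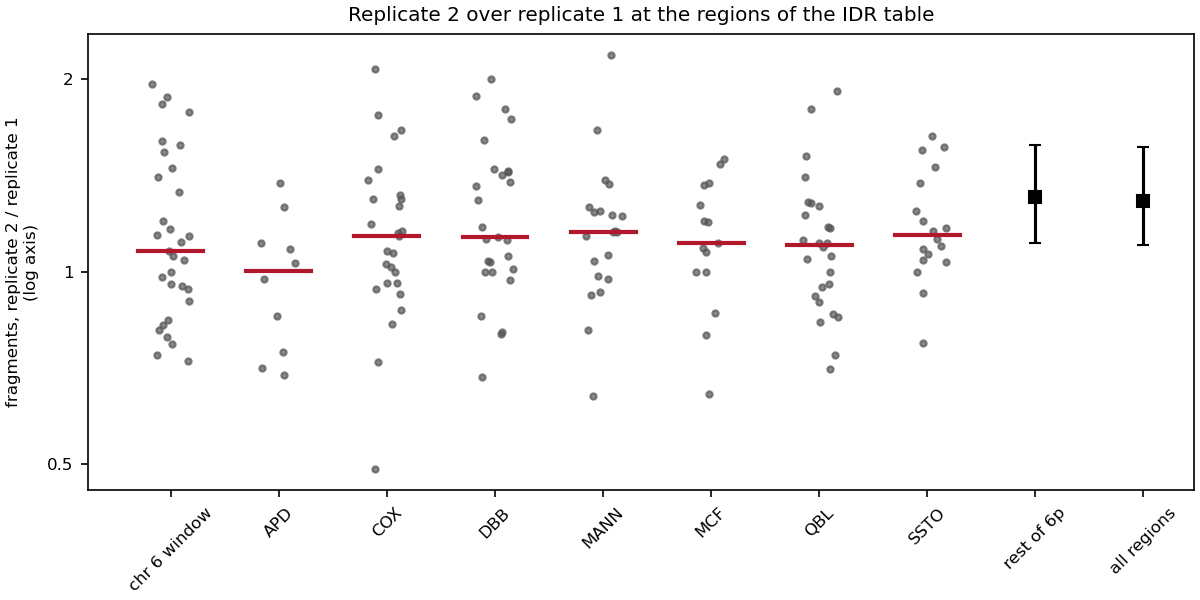
Fragments in replicate 2 over replicate 1 on a log axis, with a point for each region of the IDR table on the 8 sequences and a red line at the median; squares and bars give the median and quartiles in the rest of 6p and over all regions. The 8 medians lie between 1.0 and 1.16, below the squares at 1.31 and 1.29.

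Single regions were compared between the replicates by an exact two-sided binomial test, with the share of replicate 2 expected from regions of similar total, adjusted by Benjamini-Hochberg over all 25827 regions. Among the members, 5 of 175 were higher in replicate 1 at an adjusted p of at most 0.05, beside 1.45% of all regions, and 0 were higher in replicate 2, beside 1.05%. At an unadjusted p under 0.05 the exact test counted 33 members higher in replicate 1 and 0 higher in replicate 2, while over all regions it counted 2104 and 1921. The test compares these libraries, not conditions.

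The 5 regions belonged to 3 matched sites. At the site of 30663329 the calls were on APD with 61 fragments in replicate 1 and 42 in replicate 2 (exact test, adjusted p = 0.0235), on COX with 61 and 44 (0.044) and on MCF with 56 and 36 (0.0272). Chromosome 6 had 63 and 52 at this site, DBB 55 and 44, QBL 58 and 43, and MANN alone had more in replicate 2, with 45 and 56. The call with the smallest p was COX 3296857 to 3297154, with 51 and 25 fragments (exact test, adjusted p = 0.00209). Its site at 31787450 was also lower in replicate 2 on the other 4 versions, with 50 and 37 fragments on chromosome 6, 41 and 29 on APD, 41 and 28 on DBB, and 44 and 31 on QBL. The fifth was chr6:30750287-30751025, the second strongest region of the window, with 91 and 66 fragments (exact test, adjusted p = 0.0263). At its main site, 30750626, DBB had 88 and 75 fragments, MANN 87 and 81 and COX 77 and 71, whereas QBL had more in replicate 2, with 88 and 93.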

How the data were processed

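CEBPB ChIP and input DNA of NCM460 cells were sequenced by the authors; the submitters' processing notes list MACS2 2.1.2, Bowtie2 2.3.4, bedtools 2.25.0, SAMtools 1.9 and FastQC 0.11.7 on hg19, without settings. The deposited peak lists, 1 per ChIP sample against input per the file headers, give a whole-number score, a fold (ratio of ChIP pileup over background) and −log10 p- and q-values for each summit; every q is at most 0.05. The deposited IDR table gives the score −log10 IDR, at most 0.05 as IDR; 4 of its per-sample value columns were not used. Depth is not held in the lists.

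Fragments and background were solved from the deposited fold, with the peak caller's pseudocount of 1, and −log10 p, at scales of 0.927 and 0.800 per read; 99.9% and 100.0% of summits gave whole fragments within 0.005 on −log10 p (63 and 16 did not, none a member). This step, the binomial test and the matching were tested on simulated data. IDR entries of one interval were joined. Summits within 100 bp formed a site. Sites were linked between versions at a tolerance of 50 bp, changes of offset of at most 100 kb, and a cost of 1.5 links for a change over 200 bp. The height behind the binomial test is the sum of both replicates, over a running median of 1001 regions. Shares and densities have exact binomial and Poisson intervals at the 95% level, which cover counting error only. PCR duplicates were not assessed. Positions are hg19, counted from 1, and the window is 28.5 to 33.5 Mb. Bands and sequence lengths came from circlize 0.4.16, the positions of DXO and OR12D2 from the hg19 knownGene sample in GenomicFeatures 1.54.1. The members and lists were chosen with earlier results of these data known. Sites were named by rule: the 10 regions of the chromosome 6 window and the region of each haplotype sequence with the highest mean fold, the 10 matched sites with the most versions, ties broken by summed fragments, and the 5 tallest sites without a match; the sites whose versions stood apart, the level sites, the group on DBB and SSTO, the sites called in 1 replicate and the sites at DXO were named after their values were seen. Alternatives changed the IDR threshold, overlap rule, q-value, window, running median, tolerance and replicate. Scripts ran in Python 3.11.15 with pandas 2.3.3, SciPy 1.17.1, NumPy 2.4.6 and matplotlib 3.10.9.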

Additional observations from a re-analysis of the deposited data

How the results depend on the processing

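Of 68 alternative values, 50 stayed on the same side, within their interval or within 1.5 times the count, and none of the calls changed direction. With an IDR of at most 0.01 the members held 97 regions in place of 175 and the chromosome 6 window 3.6 per Mb in place of 6.2; summit pairs within 100 bp at a q-value of at most 0.01 gave 337 pairs and 12.0 per Mb. The density of the window over that of the rest of 6p was 0.528, and 0.404 to 0.674 over these rules and the bands 6p21.33 and 6p21.32. At a −log10 q of at least 5, 83.3% of member summits of replicate 2 had a partner. Matched sites made up 80.7% of sites, 74.3% at a tolerance of 20 bp and 84.2% at 200 bp, and 75.5% to 82.4% when one replicate was left out. Sites whose versions stood apart numbered 5 at 20 bp and 7 at 200 bp. Sites inside the IDR table on haplotype sequences only and without a match numbered 15, 24 at 20 bp and 10 at 200 bp, alternatives added after the data were seen. Calls higher in replicate 1 numbered 7 with a narrower running median and 4 at the stricter IDR. There the call on COX at 2175255 was at an adjusted p of 0.0513 in the exact test, that on COX at 3296857 was no longer in the table at its IDR of 0.0335, 3 of the 5 remained, and SSTO 2042931 was added (adjusted p = 0.0472, against 0.0505 over all regions). Results that need both replicates gave no value without one. No paired analysis was possible because no groups of samples were tested against each other: the inputs entered only as the background of the peak lists. Genes could be placed on the versions for DXO and OR12D2 only, and the number of reads behind each list is not known.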
